A study of Rattus norvegicus with 10 samples.

Results

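The circadian clock genes Clock, Npas2, Per1, Per2, Per3, Cry1, Cry2, Nr1d1, Nr1d2 and Dbp were followed in the right brain of single rats that were killed before the dark period. They were chosen by symbol: every probe set that the platform annotation assigns to one of these 10 genes alone was taken, which gave 18 of the 31042 probe sets tested. Each of 10 Affymetrix arrays carried total RNA from 1 male Wistar rat aged 7 weeks. The 5 DMHF rats inhaled the vapor of DMHF, a furanone that is an aroma compound of strawberry, and the 5 control rats the vapor of distilled water. Inhalation lasted 5 min, and the rats were left for a further 10 min before they were killed. All rats were intact animals kept under 12 h of light and 12 h of darkness, and no source used here gives the hour at which each rat was killed.

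In mammals the clock is a loop of transcription and feedback. CLOCK, or its relative NPAS2, pairs with BMAL1 and switches on the Per and Cry genes through E-box sequences, and PER and CRY proteins then block that pair. The same pair switches on Nr1d1 and Nr1d2, which encode the repressors REV-ERB alpha and beta of Bmal1 and Clock, and Dbp, which encodes an activator that binds D-box sequences. Per1 and Per2 are also induced directly, in brain, by light or neuronal activity through cAMP response elements and, in many tissues, by glucocorticoids through their receptor. Outside the suprachiasmatic nucleus of the hypothalamus, the central pacemaker, most brain regions run clocks of their own with other phases. An RNA sample of one side of the brain sums over all of them, and fewer cells of a type and less RNA per cell cannot be told apart in it.

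The motifs through which the loop works were looked up in RefSeq promoters of build GRCr8, from 250 bases before to 50 bases after a gene's start, because several of these genes share their activator. Of the 10 genes, 9 matched, with 11 promoters in all; Cry1 did not. Both strands were searched for the E-box CACGTG, its variant CACGTT, the D-box TTATGTAA, the cAMP response element TGACGTCA and AGGTCA, the core of the sequence that REV-ERB proteins bind. The 6 matches follow, each as a window of 30 bases read along the gene's strand, with the motif in capitals.
Per2, D-box 192 bases before the start, chr9:99497167-99497196, minus strand: ccatgtgcgtcTTATGTAAagagagcgacg
Per2, E-box variant 62 bases before the start, chr9:99497038-99497067, minus strand: aacgcgcgcggtCACGTTttccactatgtg
Cry2, E-box variant on the opposite strand, 212 bases before the start, chr3:98860632-98860661, minus strand: acacatggtgggAACGTGagggggcggggc
Nr1d1, E-box variant on the opposite strand, 174 bases before the upstream start, chr10:84231969-84231998, minus strand: cgcatagagctcAACGTGcccgctgctgga
Nr1d1, E-box 191 bases before the downstream start, chr10:84229628-84229657, minus strand: tgtcagctcccaCACGTGtctggggatcct
Nr1d2, AGGTCA 187 bases before the start, chr15:9954835-9954864, plus strand: gattggaaggagAGGTCAggaacgcgcata
The E-box variant thus occurred for 3 of the 9 genes, against 4.83% of all 33469 promoters, and the E-box for 1, against 6.42%. These shares are of single promoters, while the 9 genes had 11, so that a gene with more than 1 had more chances to match. The D-box occurred for 1 gene, against 0.893% of promoters, and AGGTCA for 1, against 16.2%. The cAMP response element, found in 1.83% of promoters, was in none of the 11 windows, which says only that these letters are not there.

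The deposited values were taken as log2 expression. Their differences between rats are very small and are given in millionths of a log2 unit. The scale may differ between probe sets, so that sizes can be compared between rats for one probe set but not between genes. For the same reason each difference is also given in units of the SD between rats of a group, pooled over both groups. Of the 18 probe sets, 14 had a mean above that of the median probe set (7.24 on the deposited scale), and the brightest of a gene stands for it below. Nothing was left out for low values. Levels of different probe sets cannot be set against each other, so that marker levels are a rough check of the labelled tissue and no measure of its makeup. Above the median probe set lay 5 of 5 neuronal, 4 of 4 astrocytic, 3 of 3 measured oligodendrocytic, 4 of 4 meningeal and 4 of 5 measured choroid plexus markers. Below it lay all 3 measured pineal and 4 measured ependymal markers and 5 of 6 of the anterior pituitary. Of 4 measured suprachiasmatic nucleus markers 3 lay above it, Vip, a peptide of its pacemaker neurons, among them at 9.17. The array medians differed by at most 15.2 millionths.

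No clock gene passed the test for a difference between DMHF and control rats. Of the 18 probe sets, 0 had an adjusted p under 0.05 by limma, as for all probe sets (0.0% of 31042), and 0 had an unadjusted p under 0.05, where 5.48% of all probe sets did, 3.23% higher and 2.25% lower in DMHF. An exact two-sided permutation test over all assignments of the rats to 2 groups of 5, which uses each probe set alone and cannot give less than 0.00794, likewise listed 0 of 18 at an unadjusted p under 0.05, against 5.14% of all. In 0 of the 18 did the groups fail to overlap, against 0.867% of all. The mean was higher in DMHF for 12 probe sets and lower for 6, and 53.2% of all probe sets were higher. The median difference was 0.17 within-group SD over the clock probe sets and 0.05 over all. In size it was 0.58 against 0.46, and 1 clock probe set, of Clock, exceeded 1 SD, as did 16.2% of all.

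**Figure D1:**
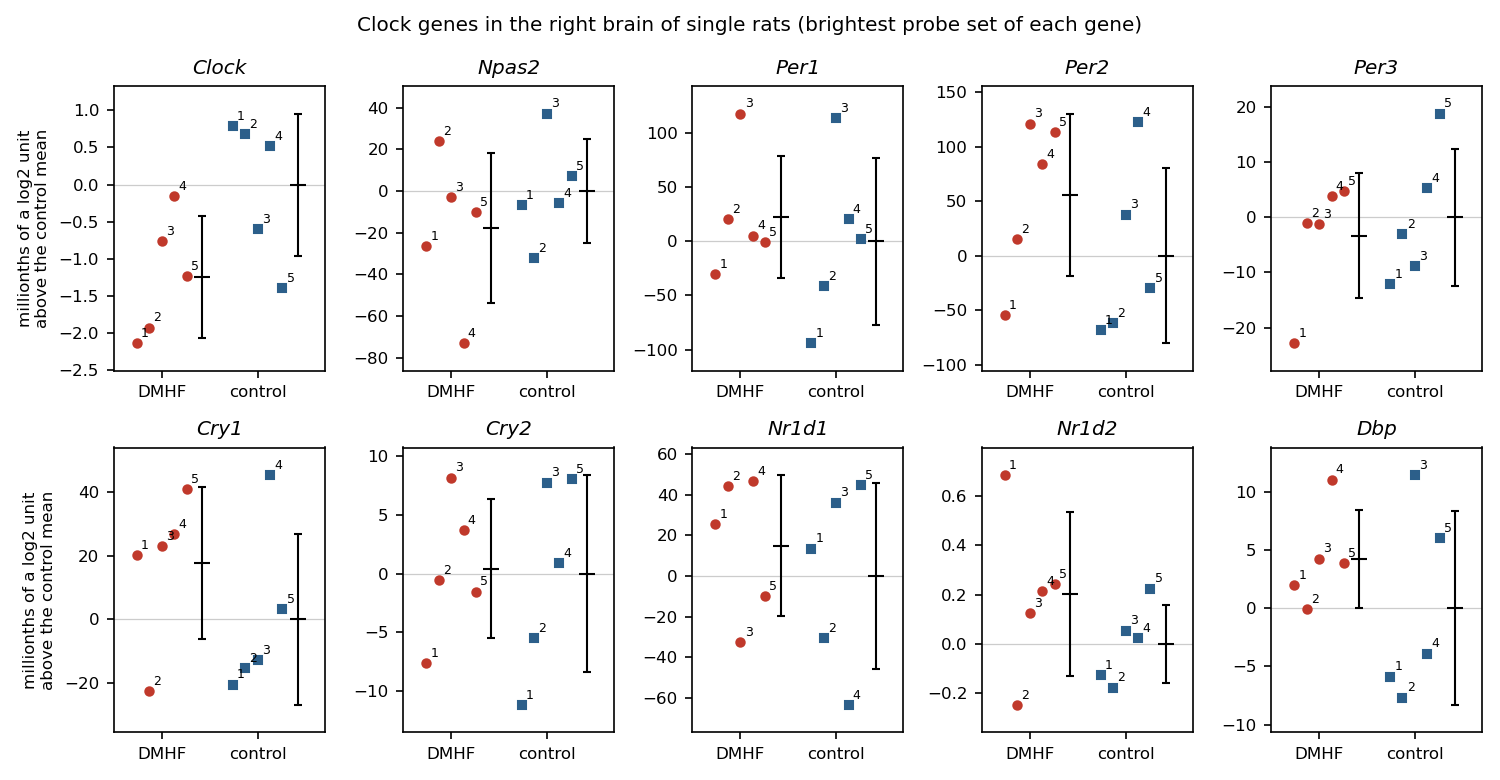
Deposited log2 values of the brightest probe set of each of the 10 clock genes, in millionths of a log2 unit above the control mean (vertical axis, a scale of its own in each panel), for 5 DMHF rats (circles) and 5 control rats (squares) with their replicate numbers; bars give the mean and SD of each group. The groups overlap in every panel, and the replicate 3 rats of both groups stand highest in Per1.

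Among the activators, Clock encodes the partner of BMAL1 and was read by 4 probe sets. For the brightest, 1390199_at (mean 8.85), the DMHF rats stood at -2.14, -1.93, -0.762, -0.159 and -1.23 millionths and the control rats at 0.788, 0.683, -0.595, 0.519 and -1.40 millionths from the control mean. All DMHF rats lay below the 3 highest control rats, and 2 of them lay below every control rat. Their means differed by -1.24 millionths (SE 0.576), which is -1.40 within-group SD (limma adjusted p = 0.931, exact permutation p = 0.0556). With single rats left out this difference ran from -1.59 to -1.02 millionths. The unadjusted exact permutation p was under 0.05 only without DMHF replicate 4 (-1.51, p = 0.0476) or control replicate 5 (-1.59, p = 0.0317). The other Clock probe sets differed by -0.998, -0.161 and 0.031 millionths, or -0.64, -0.59 and 0.03 SD. Of 6 pairs of Clock probe sets, 1389456_at and 1369168_a_at had the highest correlation between rats (Pearson r = 0.82, exact permutation p = 0.00563, adjusted over 12 pairs of probe sets of one gene 0.0675). The brightest correlated with these at -0.44 and -0.37 and with 1380098_at at 0.57 (adjusted p = 0.678, 0.678 and 0.451 by exact permutation).

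Npas2 encodes the relative of CLOCK that is abundant in the forebrain. The DMHF rats stood at -26.4, 24.1, -3.08, -73.1 and -10.2 millionths, and the control rats at -6.68, -32.1, 37.2, -5.67 and 7.26. DMHF replicate 4 was the lowest of the 10 rats and control replicate 3 the highest. Its difference, -0.57 SD, came to -17.7 millionths (SE 18.7), and limma gave an adjusted p of 0.9996. It was -3.91 without DMHF replicate 4, -8.46 without control replicate 3 and -28.2 without DMHF replicate 2. Bmal1, the shared partner of CLOCK and NPAS2, had 1 probe set of its own and differed by -2.50 millionths (SE 4.30), or -0.35 SD.

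The Per genes encode the repressors that close the loop. Per1 stood at -30.6, 20.4, 118, 5.14 and -1.14 millionths in the DMHF rats and at -94.1, -41.3, 113, 20.5 and 1.81 in the control rats. In each group replicate 3 was far above the other rats and replicate 1 the lowest. The difference between groups, 22.3 millionths (SE 40.6) or 0.33 SD, was a fraction of the distance between single rats. It lay at -1.56 without DMHF replicate 3, at -1.25 without control replicate 1 and at 50.5 without control replicate 3. Per2 stood at -54.5, 15.3, 121, 84.1 and 113 millionths in DMHF rats, against -68.5, -61.7, 37.7, 122 and -29.8 in control rats. High values, above 80, were found in 3 DMHF rats and in 1 control rat. Their means differed by 55.9 millionths (SE 46.6), which is 0.72 SD with a 95% interval of -0.64 to 2.09 SD (limma adjusted p = 0.994). Without control replicate 4 the difference was 86.4. The dimmer probe set of Per2 differed by 0.131 millionths, or 0.30 SD, and followed the brighter one at r = 0.63 (adjusted p = 0.451 by exact permutation).

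Per3, the third of the family, stood at -22.9, -1.06, -1.22, 3.86 and 4.76 millionths in DMHF rats and at -12.1, -3.04, -8.91, 5.29 and 18.8 in control rats. DMHF replicate 1 lay far below its group. The difference was -3.30 millionths (SE 7.14), or -0.28 SD, and 1.59 millionths without that rat. The dimmer Per3 probe set differed by -2.46 millionths (SE 1.91), or -0.78 SD. It correlated with the brighter one at 0.15 (adjusted p = 0.807 by exact permutation).

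The Cry genes encode cryptochromes, the partners of PER. Cry1 stood at 20.1, -22.4, 22.9, 26.7 and 40.8 millionths in DMHF rats and at -20.5, -15.2, -12.7, 45.2 and 3.17 in control rats. In the DMHF group 4 rats were above all control rats but replicate 4, and 1 rat was below every control rat. The DMHF mean was 17.6 millionths higher (SE 15.2), which is 0.70 SD (limma adjusted p = 0.995). It was 28.9 without control replicate 4 and 27.6 without DMHF replicate 2. The brighter probe set of Cry2 stood at -7.63, -0.574, 8.16, 3.70 and -1.55 millionths in DMHF rats, against -11.2, -5.51, 7.73, 0.903 and 8.04 in control rats. Replicate 1 was the lowest of each group, and the groups spanned nearly the same range. Their difference was 0.421 millionths (SE 4.37), or 0.06 SD. The other Cry2 probe set differed by 3.92 millionths (SE 2.55), or 0.93 SD (exact permutation p = 0.183). With single rats left out it ran from 2.38 to 5.97. Its unadjusted exact permutation p was under 0.05 only without control replicate 3 (0.0238). The probe sets of Cry2 correlated at 0.35 (adjusted p = 0.678 by exact permutation).

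Nr1d1 encodes REV-ERB alpha. It stood at 25.7, 44.4, -32.5, 46.7 and -9.91 millionths in DMHF rats and at 13.4, -30.7, 36.1, -63.5 and 44.6 in control rats. High and low rats were found in both groups, and replicate 3, the highest in Per1, was the lowest DMHF rat here. The difference was 14.9 millionths (SE 24.5), or 0.36 SD, and -1.01 without control replicate 4. Nr1d2, which encodes REV-ERB beta, had 3 probe sets with differences of 0.204, 0.220 and 6.05 millionths, or 0.78, 0.20 and 0.13 SD, from the brightest to the dimmest. For the brightest, DMHF rats stood at 0.684, -0.246, 0.124, 0.214 and 0.244 millionths, against -0.126, -0.176, 0.054, 0.024 and 0.224 in control rats. With single rats left out the difference ran from 0.084 to 0.317. The unadjusted exact permutation p was under 0.05 only without DMHF replicate 2, the lowest rat (0.0397). The 3 probe sets of Nr1d2 correlated with each other at 0.05 to 0.41.

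Dbp, the D-box activator and a direct output of the loop, stood at 1.96, -0.0744, 4.25, 11.03 and 3.84 millionths in DMHF rats. The control rats stood at -5.87, -7.66, 11.4, -3.91 and 6.02. The control rats included the lowest 3 and the highest of the 10, so that the DMHF rats fell inside the control range. The difference was 4.20 millionths (SE 3.96), or 0.64 SD, with a 95% interval of -0.73 to 2.01 SD. It was 2.50 without DMHF replicate 4, and 2.74, 2.29 and 7.06 without control replicates 1, 2 and 3 in turn. The plot of differences shows that the interval includes 0 for each of the 18 probe sets and that each reaches past 1 SD in at least 1 direction. Several end short of 1 SD in the other, such as those of Dbp, Per2 and Cry1 at -0.73, -0.64 and -0.67 SD on the lower side.

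**Figure D2:**
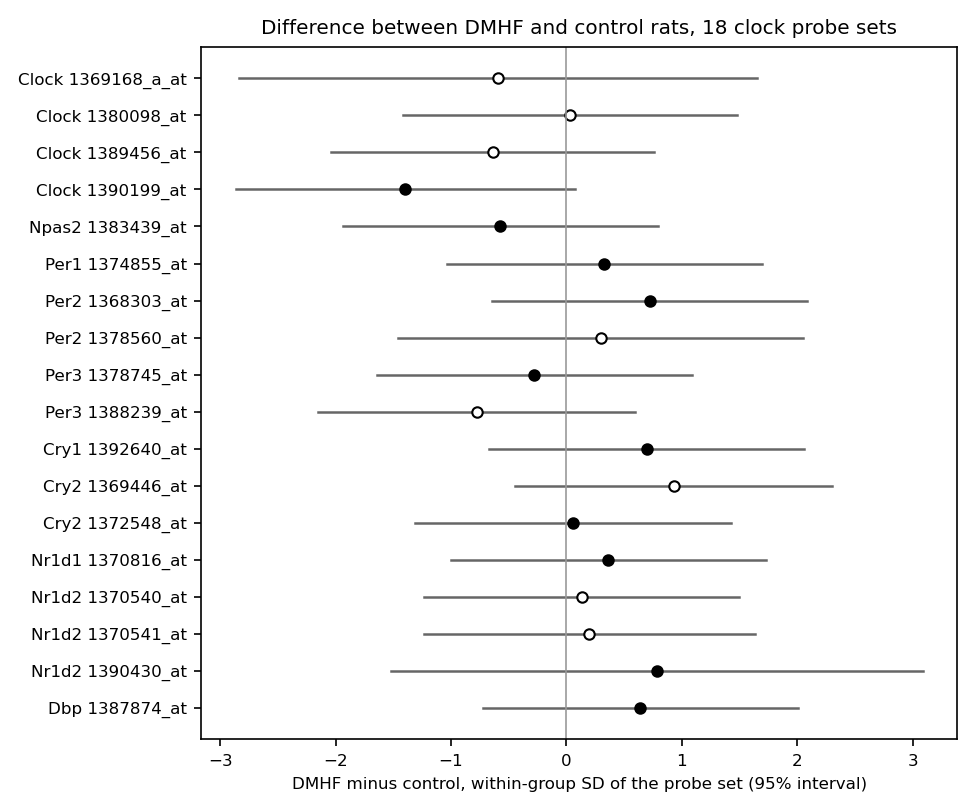
Difference between DMHF and control rats for the 18 clock probe sets, in within-group SD of each probe set (horizontal axis), with 95% intervals from the limma fit (lines); filled circles mark the brightest probe set of a gene and open circles the others. Every interval includes 0, and the largest difference in size is that of Clock 1390199_at at -1.40 SD.

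Further genes of the clock were read from 6 lists, with the brightest probe set for each gene, and 0 genes passed limma in any list. Of other core loop and repressor genes, 5 of 11 measured were higher in DMHF and 6 lower, with a median of -0.15 SD. The smallest p values belonged to Timeless (-1.74 millionths, SE 1.07), named after a fly clock gene, and Bmal2 (3.49, SE 3.47), a relative of Bmal1. Next came the D-box binders Hlf (-10.4, SE 10.9) and Tef (0.644, SE 0.754). Of 12 genes for the kinases, ligases and other proteins that set the life of clock proteins, 7 were higher and 5 lower. Gsk3b, a kinase that phosphorylates several clock proteins, had a difference of -18.6 millionths (SE 5.73) and -1.95 SD (limma adjusted p = 0.815, exact permutation p = 0.0238). It was followed by the kinase gene Csnk1a1 (-2.47, SE 1.99), the ubiquitin ligase gene Fbxw11 (0.322, SE 0.284) and Gsk3a (0.980, SE 1.23). Of 9 output genes 6 were higher and 3 lower, led by Ppara (0.906, SE 0.561), a lipid-sensing nuclear receptor, Wee1 (0.513, SE 0.369), a kinase that holds back mitosis, and Rgs16 (12.5, SE 9.92), a regulator of G protein signalling. Of 12 genes of the suprachiasmatic nucleus 6 were higher and 6 lower, with Lhx1 (0.919, SE 0.598), a transcription factor of its neurons, Vip (-16.3, SE 10.8) and the VIP receptor gene Vipr2 (1.36, SE 1.26) among the smallest p values. Of 9 activity-induced genes 3 were higher and 6 lower, with a median of -0.04 SD, led by Crem (0.546, SE 0.344), a modulator of cAMP responses. Of 10 glucocorticoid-responsive genes 1 was higher and 9 lower, with a median of -0.66 SD, led by the metallothionein genes Mt2A (-53.4, SE 29.4) and Mt1 (-2.65, SE 1.76). Over all probe sets 53.2% were higher in DMHF, and the median was 0.05 SD. Genes of a list can vary together between rats, so that these counts do not stand for independent results and are a description.

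For all clock probe sets but 1, the brightest of Clock, the groups differed by less than 1 within-group SD, and it was asked which of the genes varied together between rats. Values were centred on the group mean, and Pearson's r over the 10 rats was computed for all 45 pairs of the 10 genes. Its p came from all rearrangements of the rats within groups (exact, two-sided) and was adjusted over the 45 pairs. It does not account for a likeness between rats of one replicate number, which was seen in part and is described in the last section. With the numbers taken as a block, r was -0.00333 for Per1 and Per2 and 0.54 for Per1 and Cry2. No pair passed. Of the 45, 28 had a positive r, 3 (6.67%) an unadjusted exact p under 0.05 by r and 4 by Spearman's rho. The same shares over pairs of all probe sets were not computed, so that these counts are a description. Groups of 5 rats are too small for a value of their own, and the r within each group given below is a description.

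**Figure D3:**
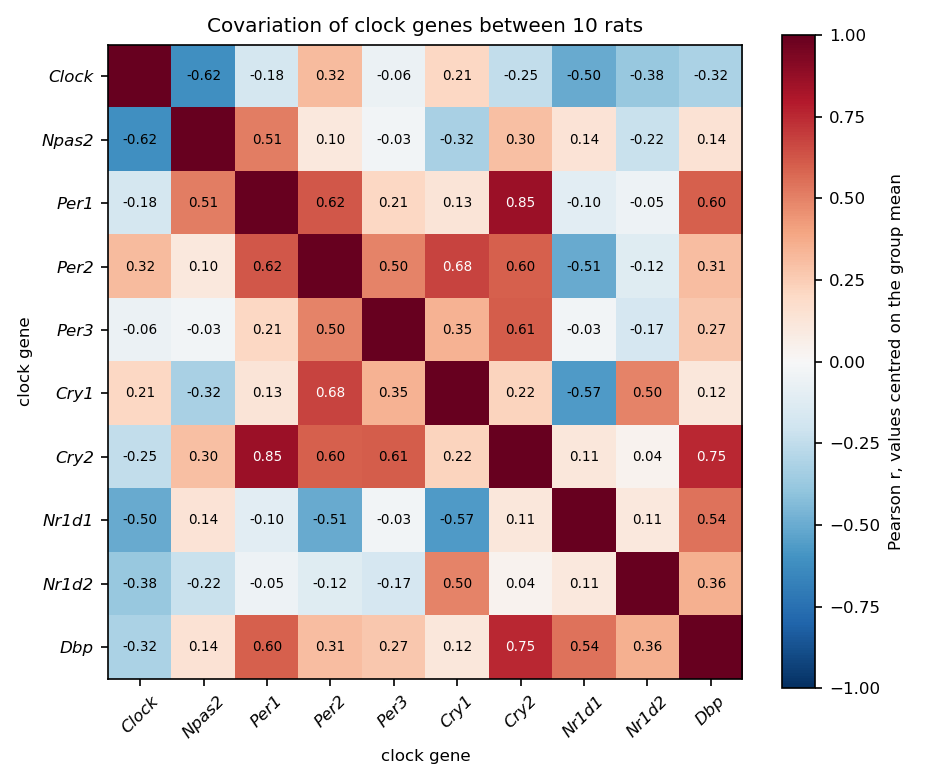
Pearson r between the brightest probe sets of the 10 clock genes over 10 rats, values centred on the group mean (colour and number in each cell; both axes list the genes, and the diagonal is each gene with itself). The highest value is that of Per1 and Cry2 at 0.85, and the lowest that of Clock and Npas2 at -0.62.

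Per1 and Cry2 had the highest correlation, r = 0.85 (exact permutation p = 0.00521, adjusted 0.234) and rho = 0.87 (exact permutation p = 0.00625, adjusted 0.281). It was 0.86 within DMHF rats and 0.85 within control rats. It was 0.84 without the replicate 3 rats of both groups, which lay farthest from the median of Per1. Of all other probe sets, 0.638% had an r with Per1 at least as high. With each gene read by the mean of all its standardised probe sets, the pair stood at 0.94 (adjusted p = 0.0219 by exact permutation). Both genes also followed the leading principal component of all probe sets, which carried 23.3% of the variance within groups, at r = -0.77 for Per1 and -0.80 for Cry2 (exact permutation, adjusted p = 0.0233 for each over the 10 genes). With that component removed r was 0.61 (adjusted p = 0.442 by exact permutation). What the component stands for was not tested.

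Among the Per genes, Per1 and Per2 stood at r = 0.62 (exact permutation p = 0.0838, adjusted 0.536) and rho = 0.76 (exact permutation p = 0.0219, adjusted 0.397), and at r = 0.67 without the 2 rats farthest from the median of Per1. Per2 and Per3 stood at r = 0.50 and rho = 0.54 (exact permutation p = 0.169 and 0.136, adjusted 0.536 and 0.476), and at r = 0.45 without the 2 rats farthest from the median of Per2. This r was 0.20 without DMHF replicate 1 and 0.77 without control replicate 5. Per1 and Per3 stood at r = 0.21 and rho = 0.32 (exact permutation p = 0.584 and 0.404, adjusted 0.922 and 0.722). Without the replicate 3 rats, this r was 0.76. Per2 also varied with Cry1, at r = 0.68 (exact permutation p = 0.0496, adjusted 0.536) and rho = 0.73 (exact permutation p = 0.0276, adjusted 0.397). That relation rested in part on control replicates 1 and 4, without which r was 0.39, and it was 0.42 without control replicate 4 alone.

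Dbp had its highest r with Cry2. This r was 0.75 (exact permutation p = 0.0399, adjusted 0.536) and rho 0.75 (exact permutation p = 0.0353, adjusted 0.397), and r was 0.85 without the 2 rats farthest from the median of Cry2. With Per1 it stood at r = 0.60 and rho = 0.61 (exact permutation p = 0.120 and 0.110, adjusted 0.536 and 0.476). This was 0.82 within control rats and 0.02 within DMHF rats, a contrast that was not tested, and 0.38 without the replicate 3 rats. Without control replicate 3 alone it was 0.26. With Per2 it stood at r = 0.31 and rho = 0.44 (exact permutation p = 0.439 and 0.229, adjusted 0.858 and 0.639). Without the 2 rats farthest from the median of Per2, this r was 0.56. It was 0.60 without control replicate 4 and 0.19 without control replicate 2. With Per3 it stood at r = 0.27 and rho = 0.33 (exact permutation p = 0.514 and 0.385, adjusted 0.922 and 0.722). Without the 2 rats farthest from the median of Per3, this r was -0.12. It was 0.68 without control replicate 3 and 0.05 without control replicate 5. With Nr1d1, another E-box gene, Dbp stood at r = 0.54 and rho = 0.52 (exact permutation p = 0.172 and 0.209, adjusted 0.536 and 0.639). Without the 2 rats farthest from the median of Nr1d1, this r was 0.64. The r of Dbp was thus positive with all 3 Per genes and passed the test with none.

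With Nr1d1 no pair passed either. Its r was -0.51 with Per2, -0.57 with Cry1 and -0.10 with Per1 (exact permutation, adjusted p = 0.536, 0.536 and 0.922), and 0.11 with Nr1d2 (adjusted 0.922). Without the 2 rats farthest from the median of Per2 the r with Per2 was -0.21. Without the 2 rats farthest from the median of Cry1 the r with Cry1 was 0.19. Clock and Npas2, which can take each other's place beside BMAL1, stood at r = -0.62 and rho = -0.54 (exact permutation p = 0.0705 and 0.131, adjusted 0.536 and 0.476), and at r = -0.75 without the replicate 1 rats. Bmal1 had a negative r with 7 of the 10 genes, the lowest with Cry2 at -0.76, rho -0.84 (exact permutation p = 0.0243 and 0.0109, adjusted over the 580 pairs described next 0.384 and 0.275). It was -0.75 without the 2 rats farthest from the median of Cry2.

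**Figure D4:**
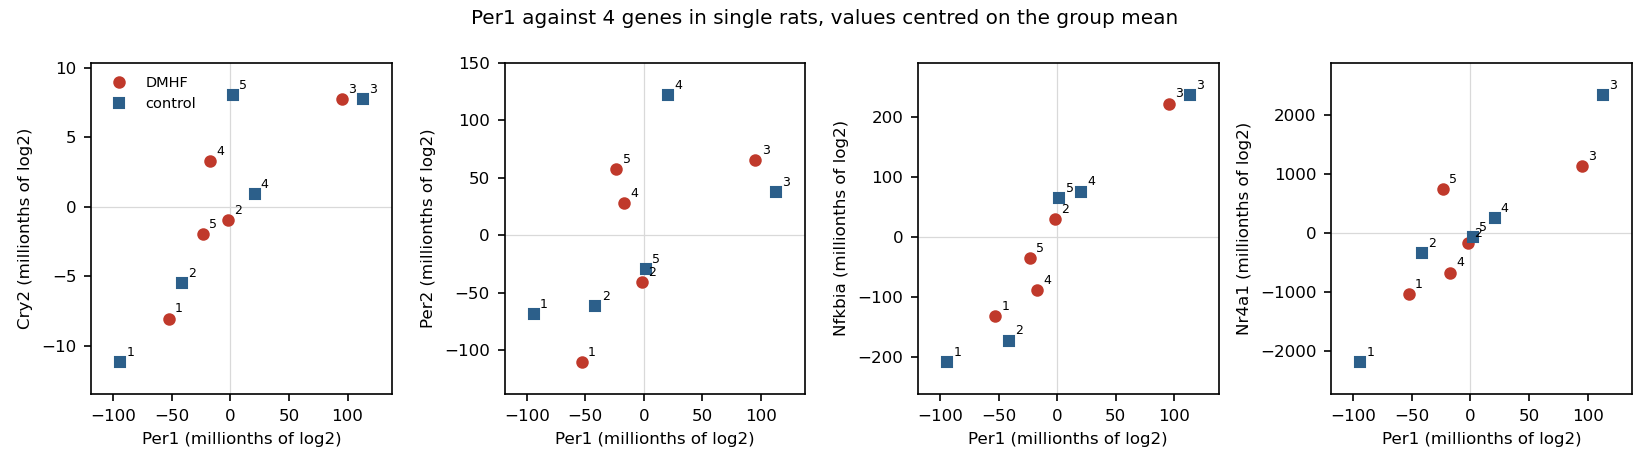
Per1 (horizontal axis) against Cry2, Per2, Nfkbia and Nr4a1 (vertical axes), all in millionths of a log2 unit and centred on the group mean, in 5 DMHF rats (circles) and 5 control rats (squares) with their replicate numbers. The replicate 1 rats lie at the low end and the replicate 3 rats at the high end of Per1 in both groups; r is 0.85, 0.62, 0.96 and 0.91 from left to right.

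Outside the loop, Per1 was also compared with genes induced by neuronal activity and by glucocorticoids. The 10 clock genes were set against the genes of the 6 lists, 580 pairs in all, and p values were adjusted over them. No pair passed, and 56 pairs (9.66%) had an unadjusted exact p under 0.05. The same share over pairs of a clock gene with all probe sets was not computed. For Per1, an r of at least 0.8 was found for 6 of 9 activity-induced genes and for 5 of 10 glucocorticoid-responsive genes, against 1.46% of all probe sets. The median r of Per1 was 0.86 with the first list and 0.64 with the other, against -0.03 over all probe sets. Listed genes with a low or negative r were among them, with Crem at -0.09, Fkbp5, a co-chaperone of the glucocorticoid receptor, at 0.15, and the metallothionein genes Mt2A and Mt1 at -0.21 and -0.57. Members of these lists vary together, so that their r values are not independent. The lists were chosen with earlier results of these data known. Of their genes, 9 of 9 and 9 of 10 lay above the median probe set, so that all probe sets are not a like background. The shares are therefore a description.

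Nfkbia, an inhibitor of NF-kappa-B, tracked Per1 most closely of the listed genes. It stood at -278, -117, 76.7, -234 and -181 millionths in DMHF rats and at -208, -172, 238, 76.3 and 66.0 in control rats. The rats fell in almost the same order for both genes within each group, with r = 0.96 (exact permutation p = 0.000208, adjusted 0.0503) and rho = 0.98 (exact permutation p = 0.000278, adjusted 0.121). Without the replicate 3 rats r was 0.92. Sik1, a kinase gene switched on by CREB, followed at r = 0.95 and rho = 0.92 (exact permutation p = 0.000347 and 0.00118, adjusted 0.0503 and 0.134), and at 0.84 without the replicate 3 rats. The clock repressor Bhlhe40 stood at r = 0.90 and rho = 0.89 (exact permutation p = 0.000278 and 0.00139, adjusted 0.0503 and 0.134), and at 0.78 without them.

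Among the immediate early genes, Nr4a1, a nuclear receptor, had r = 0.91 and rho = 0.85 with Per1 (exact permutation p = 0.00132 and 0.00375, adjusted 0.0973 and 0.136), and r = 0.81 without the replicate 3 rats. Fos, a transcription factor subunit, had r = 0.81 and rho = 0.67 (exact permutation p = 0.0156 and 0.0552, adjusted 0.301 and 0.433), and r = 0.57 without them. Without DMHF replicate 5, 4 pairs of Per1 passed, with Nfkbia (0.97), Arc (0.98), Nr4a1 (0.97) and Bhlhe40 (0.90), and 1 of Cry2, with the vasopressin receptor gene Avpr1a (-0.98), each at an adjusted p of 0.0403 by exact permutation. Per2 had r of at most 0.72 with the activity-induced genes, with a median of 0.51, and a median of 0.54 with the glucocorticoid-responsive genes. The median r with the activity-induced genes was 0.66 for Cry2, 0.53 for Dbp and -0.18 for Nr1d1.

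The highest r of Cry2 with a listed gene was that with Csnk1e, the gene of casein kinase 1 epsilon, which phosphorylates PER proteins. Csnk1e stood at -14.4, 6.96, 24.6, 6.60 and -2.35 millionths in DMHF rats and at -24.8, -12.7, 12.0, 8.95 and 16.4 in control rats. As in Cry2, replicate 1 was the lowest of each group. Their r was 0.97 and rho 0.95 (exact permutation p = 0.000208 and 0.000417, adjusted 0.0503 and 0.121), and r was 0.93 without the 2 rats farthest from the median of Cry2. The means of cell type marker lists were also set beside Per1 and Cry2, without a test. The mean of the astrocyte list had an r of -0.77 with Per1 and -0.58 with Cry2, that of the meninges list -0.73 and -0.66, and that of the ependyma list -0.65 and -0.77. The choroid plexus list stood at -0.54 and -0.54, the oligodendrocyte list at -0.50 and -0.26, and the suprachiasmatic nucleus list at -0.36 and -0.72. The neuron list stood at 0.33 and 0.32, the blood list at 0.32 and 0.09, and the pineal list at 0.15 and 0.38. In within-group SD above the control mean, the astrocyte list ran from -0.29 to 1.73 in DMHF rats and from -0.82 to 0.65 in control rats. The ependyma list ran from 0.43 to 1.85 in DMHF rats and from -1.08 to 1.01 in control rats. The choroid plexus list ran from -0.21 to 2.19 and from -1.09 to 1.23. The anterior pituitary list ran from 0.40 to 1.696 in DMHF rats and from -1.27 to 0.54 in control rats, with an r of -0.10 with Per1. Its genes differed unevenly between groups, by 2.58 SD for Cga, 1.98 for Tshb, 1.15 for Gh1, 0.72 for Lhb, 0.04 for Prl and -0.45 for Pomc. The part of these cell types in the clock gene values was not tested.

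Ranked over 12138 single-gene probe sets above the median level, the genes whose pattern over the 10 rats was most like that of Per1 were Nfkbia (r = 0.96), Dlgap1 (0.96), Vps29 (0.95), Sik1 (0.95) and Bhlhe22 (0.95). For Per2 they were Etv5 (0.93), Gtf2h3 (0.93), Ash1l (0.93), Rpl14 (0.92) and Vps18 (0.91). Rras (0.94), Srsf10 (0.94), Coro2b (0.92), Apc2 (0.90) and Urb2 (0.90) were most like Dbp. Prdm2 (0.92), Slc37a4 (0.91), Abca3 (0.88), Pigt (0.87) and Zfp609 (0.87) were most like Nr1d1. These are the highest of many values and describe these rats only, and the 4 rankings named no gene in common.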

How the data were processed

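The authors deposited 1 table of processed values for 31099 probe sets and 10 arrays, taken as log2 expression because the deposited values ran from 5.25 to 14.22, although no source used here states the log base. R 2.7.2 is named per the submitters' processing notes, and how background, normalization and summary were handled is not stated in any source used here. The 57 control probe sets were left out, which left 31042, of which 20826 named 1 gene, 436 several and 9780 none in GEO's platform annotation. All 18 clock probe sets matched the NCBI rat gene table by gene identifier, with 0 symbols changed. The sources do not describe litters, cages or scan dates, and the titles call the rats biological replicates, so that p-values measure the spread between these rats. The number of arrays limits the precision.

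DMHF was compared with control with a two-sided limma test (version 3.58.1, R 4.3.3), adjusted by Benjamini-Hochberg over all probe sets with a threshold of 0.05, and by exact permutation of each probe set. Covariation was tested by exact permutation within groups in Python 3.11.15. These tests were checked on simulated data. Genes were named by rule: the 10 clock genes, up to 4 genes of smallest p in each of 6 lists, and the 5 of most like pattern for Per1, Per2, Dbp and Nr1d1. Listed genes named for their r with Per1, Cry2 or Dbp, and Bmal1, were chosen after the values were seen. The members and lists were chosen with earlier results of these data known. The alternatives tried were quantile normalization, a replicate block, scaling to one array median, a filter on dim probe sets, array weights, other variance priors, each rat left out, and for covariation rank correlation, no centring, the leading component removed and all probe sets of a gene. Those for pairs of a clock gene and a listed gene were added after seeing the data.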

Additional observations from a re-analysis of the deposited data

Results flagged for a closer look

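In 1 of 36 groups of 5 rats tested, over the 18 clock probe sets, a single rat stood far from the rest, and chance alone flags about 1 in 20 such groups. DMHF replicate 1 had a Per3 value (probe set 1378745_at) of -22.9 millionths from the control mean, while the other 4 DMHF rats lay between -1.22 and 4.76 millionths. The gap to the nearest rat was 0.783 of the range of the group, above the critical value of 0.71. The same rat was the lowest DMHF rat in the brightest probe sets of Per1, Per2 and Cry2, too. It was not the lowest in the dimmer probe set of Per3 (-0.928, with DMHF replicate 4 at -5.98). Nor was it in that of Cry2 (2.82, with DMHF replicate 5 at 0.664).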

How the results depend on the processing

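No clock probe set passed limma under any of its alternatives. Over all probe sets limma called 13 after quantile normalization, which left 10076 probe sets and 6 of the 18 clock probe sets to test, and 0 to 1 with single rats left out (1 without DMHF replicate 2). With single rats left out, the exact test listed 0 to 1 clock probe sets at an unadjusted p under 0.05. Those are the values given above for Clock, Cry2 and Nr1d2, which were printed because they fell under 0.05. The share over all probe sets with a rat left out was not computed, and with all rats it was 5.14%. The pairing by replicate number was checked from the data. Rats of the same number correlated at 0.0288 to 0.273 over all probe sets, and those of different numbers at -0.184 to 0.204. Of the DMHF rats, 3 of 5 correlated best with the control rat of their own number. On the leading component the replicate 1 rats stood at 0.57 (DMHF) and 0.36 (control), and the replicate 3 rats at -0.40 and -0.31. The rats of replicates 2 and 5 had opposite signs there. The main tests did not take the numbers as pairs, and their permutation p values do not account for a likeness between rats of one number. With the replicate block, 0 probe sets passed limma. The sign-flip test of 5 pairs cannot reach 0.05. In the block, r was -0.00333 for Per1 and Per2, -0.0681 for Per1 and Per3, -0.155 for Per2 and Per3, -0.80 for Per2 and Dbp, and -0.143 for Per3 and Dbp. It kept its sign and was lower for Per1 with Fos (0.17), Dbp (0.18), Cry2 (0.54), Nr4a1 (0.57), Sik1 (0.59), Bhlhe40 (0.84) and Nfkbia (0.92), for Cry2 with Dbp (0.56) and Csnk1e (0.86), and for Per2 with Cry1 (0.53).

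With a common array median, 2 clock gene pairs and 66 pairs with listed genes passed. The clock gene pairs were Clock with Nr1d2 (r = 0.98) and Clock with Cry2 (0.93). Both had the opposite sign without the scaling, at -0.38 and -0.25. This scaling adds a shared offset to all values of an array, and the array medians spanned 15.2 millionths. The within-group SD was 0.890 for the brightest probe set of Clock, 0.260 for that of Nr1d2 and 67.5 for that of Per1. Among the 66 were pairs of Per1 with Nfkbia, Sik1, Bhlhe40 and Nr4a1. Their r was 0.97, 0.94, 0.92 and 0.91 (adjusted p = 0.0110, 0.0142, 0.0142 and 0.0227 by exact permutation). Their unadjusted exact permutation p was 0.000208, 0.000417, 0.000417 and 0.00125, against 0.000208, 0.000347, 0.000278 and 0.00132 without the scaling. The adjusted p also depends on the p of the other pairs, so that passing here is no added evidence for these pairs of Per1. With the mean of all probe sets of a gene 1 pair passed, Per1 and Cry2. With single rats left out 0 clock gene pairs and 0 to 5 listed pairs passed (5 without DMHF replicate 5). Clock 1380098_at turned to -18.2 (quantile), -0.0152 (common median) and -0.138 millionths (array weights), Cry2 1369446_at to -9.07 and Nr1d2 1370540_at to -14.2 (quantile). After quantile normalization only 1 of the 45 clock gene pairs could be computed, Per2 and Per3, at r = -0.329. The brightest probe sets of the other clock genes no longer varied between rats there, so that their pairs went unchecked. Per1 and Per3 stood at -0.32 (component removed), and Per3 and Dbp at -0.124 (2 rats left out). With single rats left out, differences ranged from -0.356 to 0.313 (Clock 1380098_at), -1.56 to 50.5 (Per1), -0.014 to 0.278 (Per2 1378560_at), -6.34 to 1.59 (Per3 1378745_at), -2.37 to 2.43 (Cry2 1372548_at), -1.01 to 26.7 (Nr1d1), -15.0 to 21.4 (Nr1d2 1370540_at) and -0.104 to 0.631 (Nr1d2 1370541_at), and r from -0.0221 to 0.562 (Per1 and Per3). The cause of these changes was not tested.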
